A study of Mus musculus with 8 samples.

Results

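Bone marrow-derived macrophages (BMDMs) of Trex1-knockout mice that had received H151, a small molecule that inhibits STING, were compared with BMDMs of wild-type (WT) mice, to describe which genes and pathways still differed from WT while STING was inhibited. The libraries were chosen by their titles, and 4 of the 8 RNA-Seq libraries of the study entered the comparison, 2 of H151-treated Trex1-knockout cells (Trex1-KO+H151) and 2 of WT cells. The marrow came from tibia and femur of mice aged 6 to 8 weeks and was grown for a week in medium with L929 cell supernatant. Cells were then incubated for 12 h with H151 at 500 nM or with its vehicle DMSO. Trex1-KO+H151 cells lacked Trex1 on both alleles and received H151, and Trex1-KO cells (2 libraries) lacked Trex1 and received DMSO only. WT cells carried both Trex1 alleles and received DMSO. The remaining 2 libraries came from Trex1-KO cells treated with SN-011, another STING antagonist. They were not compared here, but all 8 libraries entered the fit that estimated the spread. Per the methods, the knockout mice were offspring of heterozygous Trex1 mice, and the WT mice were obtained separately. No WT cells with H151 were analysed here, so an effect of the genotype and an effect of the compound cannot be told apart in a comparison with WT. Values of Trex1-KO cells without H151 are therefore given beside those of the treated cells. The labels do not say whether the 2 libraries of a group came from separate mice or cultures, while a figure legend of the paper calls them independent experiments. P-values measure only the spread between these libraries.

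The WT libraries held 13146808 and 14252747 counts, those of Trex1-KO+H151 held 12304509 and 15088900, and the range over the study was 11845470 to 17284863. Levels are given as CPM, which are counts put on the same library total with TMM, on which 1 count was worth 0.0582 to 0.0849 CPM. Of 10 macrophage markers, all 10 were expressed, and their summed level was 33000 and 30950 CPM in WT and 30800 and 31930 with H151. Adgre1, which encodes F4/80, stood at 2210 and 2130 CPM in WT and 2323 and 2424 with H151 (0.13 ± 0.05, edgeR adjusted p = 0.152). The deletion itself could not be checked, because the exons of Trex1 (chromosome 9, 109057933 to 109059734 on GRCm38) lie wholly inside exons of Atrip and Trex1 had 0 counts in every library. The WT libraries differed from each other in a set of inflammatory genes chosen after the values were seen. Cxcl10 stood at 25.8 and 5.63 CPM in the 2 WT libraries, Saa3 at 18.2 and 0.61 CPM and Marco at 10.8 and 2.85 CPM, each higher in WT replicate 1. Fewer cells of a type and less RNA per cell cannot be told apart in these bulk samples.

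TREX1 is an exonuclease that degrades DNA in the cytosol. When it is missing, the DNA sensor cGAS makes the second messenger cGAMP, which binds STING on the endoplasmic reticulum, and STING recruits the kinase TBK1 to phosphorylate IRF3. The type I interferon that results acts back on the cells through JAK kinases and STAT factors and switches on antiviral genes, many of which carry an interferon-stimulated response element (ISRE) in their promoters. H151 binds covalently to a cysteine of STING and prevents the palmitoylation that STING needs to signal.

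With H151 present, 1726 of 14591 tested genes (11.8%) differed between Trex1-KO and WT cells at a false discovery rate of 0.05, of which 990 (6.79%) were higher and 736 (5.04%) lower than in WT. Genes past this threshold are said to be called. The count was 971 (575 higher, 396 lower) without WT replicate 1 and 1091 (566 and 525) without WT replicate 2. A change of at least 2-fold was reached by 511 of the called genes, 220 higher and 291 lower. Against the same WT libraries, Trex1-KO cells without H151 differed in 2390 genes (16.4%), 1352 higher (9.27%) and 1038 lower (7.11%), with 1556 in all without WT replicate 1 and 1583 without WT replicate 2. H151 itself, in Trex1-KO+H151 against Trex1-KO, was followed by a change in 325 genes (2.23%), a fall of 269 genes (1.84%) and a rise of 56 (0.384%), the latter 28 without Trex1-KO replicate 2 and 31 without H151 replicate 1. Of the calls against WT under H151, 57.4% were higher, and scaling by total counts alone in place of the trimmed mean of M-values (TMM) turned the split to 715 higher and 998 lower, with the median of all genes moved by -0.06 on the log2 scale. Log2 fold changes below are Trex1-KO+H151 against WT unless another pair is named, with their standard error (SE), and adjusted p-values are from edgeR's quasi-likelihood test over all tested genes.

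**Figure D1:**
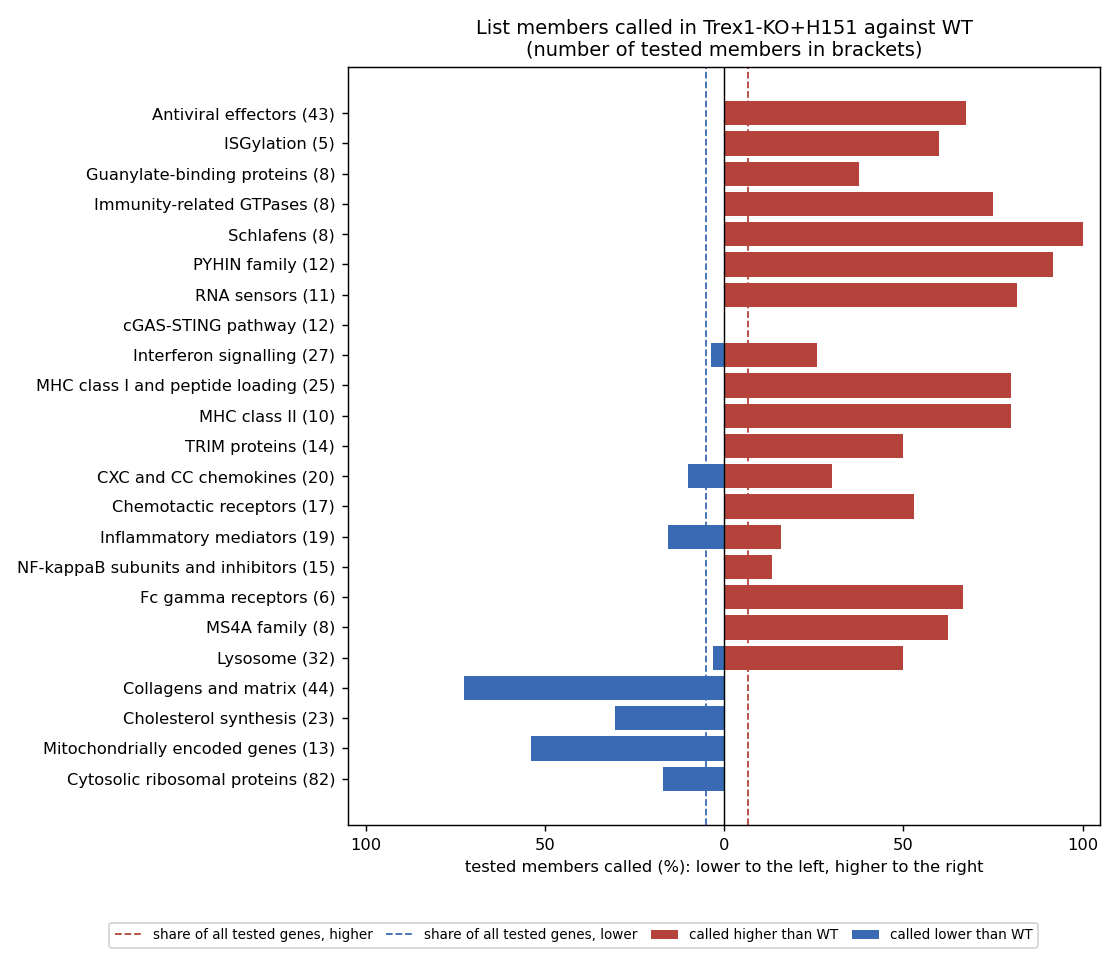
Share of the tested members of each gene list called in Trex1-KO+H151 against WT (percent), higher than WT to the right of 0 in red and lower to the left in blue, with the share of all tested genes called in each direction as a dashed line and the number of tested members in brackets. The bar of the Schlafens covers 8 of 8 members and that of MHC class II 8 of 10, the cGAS-STING pathway has no bar, and the matrix list reaches 32 of 44 members lower.

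Promoter sequences are shown first for 5 interferon-stimulated genes, chosen because each carries the same element, and some of them were called against WT under H151 and others were not. Each is the stretch of 250 bases before the start of the gene on build GRCm38.p6 (RefSeq), 5' to 3' on the strand of the gene. Capitals mark matches to the ISRE, searched on both strands as GAAA, any 2 bases and GAAA, so that a match on the other strand starts and ends with TTTC, and matches that overlap are run together. Ifi213 (PYHIN protein), Ifit3 (antiviral effector) and Oas3 (oligoadenylate synthetase) were called higher than WT under H151, whereas Isg15 (ubiquitin-like modifier) and Cxcl10 (chemokine) were not.
Ifi213, chr1:173599273-173599522, minus strand: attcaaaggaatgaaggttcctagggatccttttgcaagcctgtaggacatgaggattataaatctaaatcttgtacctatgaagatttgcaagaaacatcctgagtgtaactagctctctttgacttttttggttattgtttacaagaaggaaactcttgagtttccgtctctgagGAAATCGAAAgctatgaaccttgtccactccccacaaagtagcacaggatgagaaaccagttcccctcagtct
Ifit3, chr19:34583279-34583528, plus strand: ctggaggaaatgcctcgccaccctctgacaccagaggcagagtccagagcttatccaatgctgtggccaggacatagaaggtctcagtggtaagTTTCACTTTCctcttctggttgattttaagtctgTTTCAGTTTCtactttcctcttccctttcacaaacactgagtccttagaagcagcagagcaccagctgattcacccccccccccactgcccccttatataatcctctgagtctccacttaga
Oas3, chr5:120777660-120777909, minus strand: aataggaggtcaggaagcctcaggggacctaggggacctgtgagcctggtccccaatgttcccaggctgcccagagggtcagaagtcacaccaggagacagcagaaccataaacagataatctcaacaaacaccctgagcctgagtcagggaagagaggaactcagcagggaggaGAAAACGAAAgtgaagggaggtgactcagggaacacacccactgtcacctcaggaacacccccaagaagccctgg
Isg15, chr4:156200819-156201068, minus strand: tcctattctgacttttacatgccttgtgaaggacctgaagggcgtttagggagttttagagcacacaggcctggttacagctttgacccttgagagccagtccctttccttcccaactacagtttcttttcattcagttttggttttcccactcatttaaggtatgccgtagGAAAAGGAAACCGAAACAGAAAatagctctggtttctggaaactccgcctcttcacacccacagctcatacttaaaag
Cxcl10, chr5:92348890-92349139, minus strand: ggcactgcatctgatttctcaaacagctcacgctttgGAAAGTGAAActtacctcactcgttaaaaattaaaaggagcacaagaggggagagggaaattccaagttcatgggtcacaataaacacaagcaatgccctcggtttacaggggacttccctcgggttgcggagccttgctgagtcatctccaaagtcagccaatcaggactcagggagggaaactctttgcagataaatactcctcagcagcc

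The ISRE letters began 73 bases before the start of Ifi213, 75 bases before that of Oas3 and 213 bases before that of Cxcl10. Across all 27025 genes with a promoter in the table, 3.46% held an ISRE in these 250 bases. Among the genes called higher than WT under H151, 73 of 750 with a promoter did (9.73%), and among those called lower 19 of 524 (3.63%). The share was 9 of 11 in the PYHIN family, 5 of 6 in the immunity-related GTPases, 14 of 34 in the antiviral effectors and 3 of 20 in MHC class I and peptide loading. Of 16 chemotactic receptor genes with a promoter, 0 held it. The gamma interferon-activated site (GAS), searched as TTCNNNGAA, which reads alike on both strands, was in 8.13% of all promoters, in 9.33% of those of higher genes and in 6.3% of those of lower genes. Slfn4, Slfn1, Oasl1, Ifi44, Irf7 and Ms4a4c were also called higher than WT under H151 and held no match in their 250 bases, so their sequences are not shown. A match describes letters in this window and does not show that a factor bound there.

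Most antiviral effectors, the proteins that block viral entry, translation or replication, stayed above WT in the presence of H151. Of 43 tested members, 29 (67.4%, against 6.79% of all genes called higher) were called higher, and the median log2 fold change of the list was 0.56, against 0.0012 over all tested genes. Without H151, 39 of the members were higher than WT, with a median of 1.55, and H151 lowered 31 of them against Trex1-KO. The count with H151 was 15 without WT replicate 2 and 18 without H151 replicate 2.

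Ifi44, an interferon-induced protein of the cytoplasm, stood at 13.6 and 10.1 CPM in WT, 183 and 176 in Trex1-KO and 61.2 and 73.6 in Trex1-KO+H151. The treated libraries lay between the WT and the untreated knockout libraries with no overlap, at a log2 fold change of 2.52 ± 0.12 against WT (edgeR adjusted p = 3.72e-08) and of -1.41 ± 0.10 against Trex1-KO (edgeR adjusted p = 8.25e-06). Oasl1, a member of the oligoadenylate synthetase-like family, stood at 9.86 and 7.12 CPM in WT, 124 and 111 in Trex1-KO and 41.4 and 53.3 with H151, and was again intermediate (2.49 ± 0.15, edgeR adjusted p = 2.09e-07). Oas3, which makes the oligoadenylates that activate RNase L, was measured at 87.1 and 74.4 CPM in WT, 428 and 416 in Trex1-KO and 180.3 and 215 with H151 (1.30 ± 0.10, edgeR adjusted p = 1.70e-06). Oasl2 was 2.5-fold above WT (1.32 ± 0.09, edgeR adjusted p = 3.69e-07), from 114 and 99.4 CPM in WT to 251 and 284 CPM, with 589.8 and 563 CPM in Trex1-KO. For each of these 4 genes the H151 libraries were apart from both other groups.

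Ifit3, which binds to IFIT proteins that hold viral RNA, stood at 70.4 and 52.3 CPM in WT and 89.5 and 114 with H151, from 350.3 and 321 CPM in Trex1-KO. It remained called (0.74 ± 0.13, edgeR adjusted p = 0.00181), and the H151 libraries lay above both WT libraries. Zbp1, which senses Z-form nucleic acid, stood at 35.7 and 28.9 CPM in WT, 150.5 and 131 in Trex1-KO and 64.3 and 69.9 with H151 (1.06 ± 0.12, edgeR adjusted p = 5.06e-05). Some other members were not called. Mx1, a dynamin-like GTPase, stood at 70.1 and 47.9 CPM in WT, 275 and 248 in Trex1-KO and 69.2 and 91 with H151 (0.45 ± 0.15, edgeR adjusted p = 0.0752), and was called without WT replicate 1, without H151 replicate 1 and when every gene with a count was tested. Cmpk2, a nucleotide kinase of mitochondria, stood at 47.6 and 33.4 CPM in WT, 159.7 and 153 in Trex1-KO and 45.8 and 60.5 with H151 (0.40 ± 0.14, edgeR adjusted p = 0.0924). For both genes the lower H151 library lay below the higher WT library, and Cmpk2 was called under the same 3 alternatives as Mx1.

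**Figure D2:**
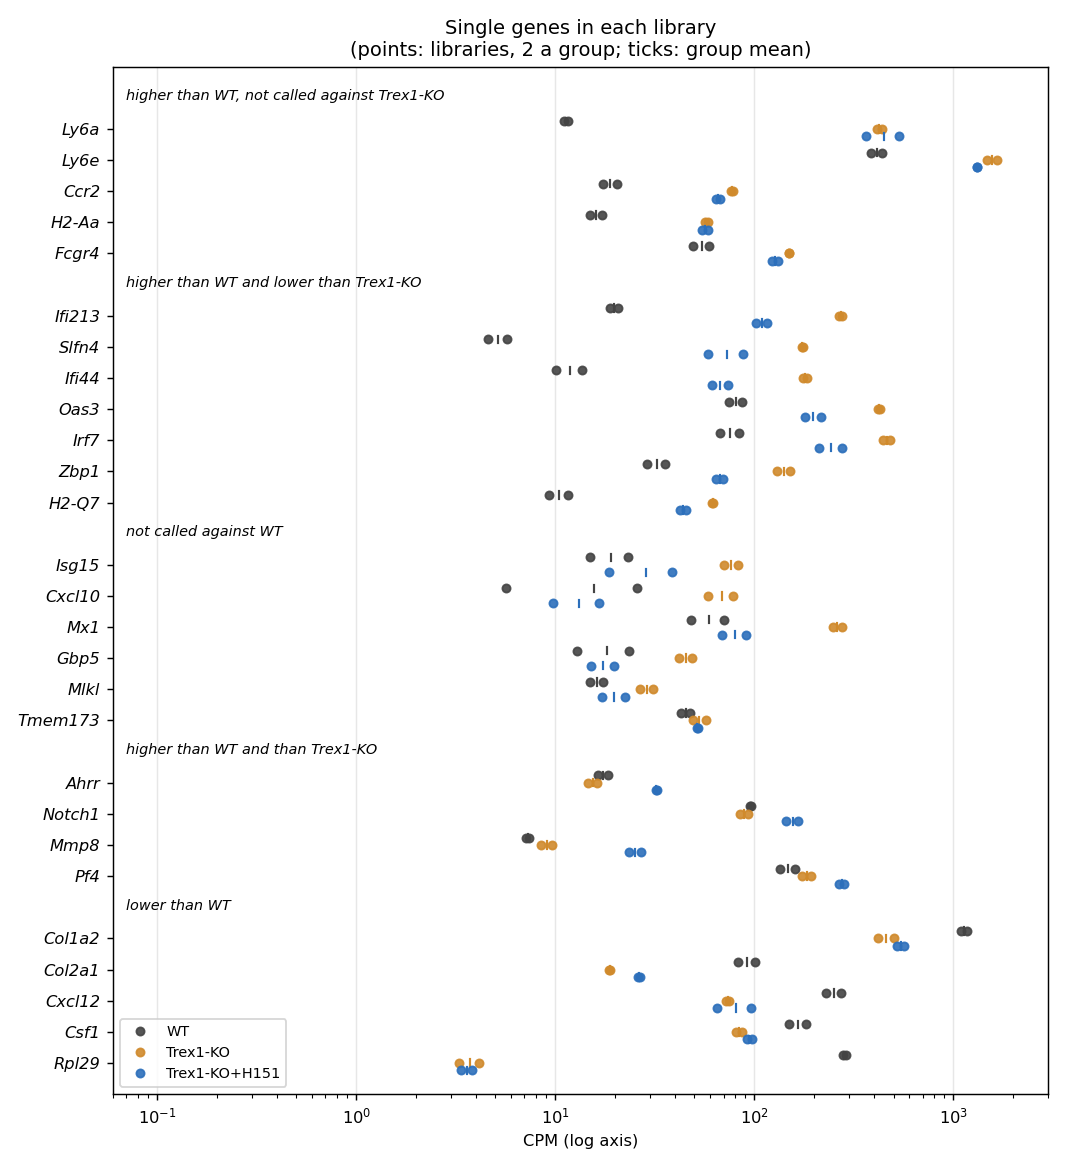
Level of each gene in each library (CPM on a log10 axis) for WT, Trex1-KO and Trex1-KO+H151, with the genes grouped by the calls of Trex1-KO+H151 against both other groups. Ly6a and H2-Aa with H151 sit at the level of Trex1-KO, Ifi213 and Slfn4 lie between WT and Trex1-KO, Isg15 and Cxcl10 with H151 overlap WT, and Rpl29 is far below WT in both knockout groups.

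ISG15, a ubiquitin-like protein, is attached to targets by UBA7, UBE2L6 and HERC6 and removed by USP18. Of 5 members of this system, 3 were called higher than WT (all 5 without H151), and 2 were under scaling by total counts. Fewer were called higher without WT replicate 2 and more without H151 replicate 1. Of the 3, Uba7 (0.27, edgeR adjusted p = 0.0147) lies within 5 Mb of Trex1 on chromosome 9, in a region described further on. Usp18 stood at 17.2 and 14.3 CPM in WT, 97.6 and 96.6 in Trex1-KO and 31.4 and 48.2 with H151 (1.35 ± 0.16, edgeR adjusted p = 9.16e-05), and Ube2l6 at 38.5 and 35.2 CPM in WT and 53.6 and 60.7 with H151 (0.64 ± 0.10, edgeR adjusted p = 8.11e-04). Isg15 itself stood at 23.2 and 15 CPM in WT, 70 and 83.2 in Trex1-KO and 18.6 and 38.4 with H151. Its H151 libraries overlapped the WT libraries and it was not called (0.60 ± 0.26, edgeR adjusted p = 0.172), whereas it was called without H151 replicate 1, the lower of the pair, and when every gene with a count was tested. Herc6 was not called either (0.47 ± 0.14, edgeR adjusted p = 0.052), but was by DESeq2, with a replicate block, when every gene with a count was tested, without WT replicate 1 and without H151 replicate 1.

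Among the interferon-inducible GTPases, which attack the vacuoles of intracellular pathogens, 2 families were measured, and no test compared them. Of the immunity-related GTPases, 6 of 8 tested members were higher with H151 (7 without it), with a median log2 fold change of 0.74, against 1.69 without H151. Fewer were higher without WT replicate 2, and 5 were under scaling by total counts. Tgtp2 stood at 7.8 and 6.1 CPM in WT, 60.1 and 57 in Trex1-KO and 17.5 and 21.6 with H151 (1.5 ± 0.15, edgeR adjusted p = 1.36e-05). Irgm2, a regulator that keeps other GTPases off the membranes of the cell, stood at 55.7 and 52.7 CPM in WT, 162 and 150.6 in Trex1-KO and 80.7 and 81.9 with H151 (0.59 ± 0.07, edgeR adjusted p = 9.39e-05). Both genes were apart from WT in both libraries. Of the guanylate-binding proteins, 3 of 8 were higher with H151, 8 were without it, and 5 were called without WT replicate 1. Gbp5, which promotes inflammasome assembly, stood at 23.6 and 12.8 CPM in WT, 48.6 and 41.6 in Trex1-KO and 15.1 and 19.8 with H151 (-0.04 ± 0.23, edgeR adjusted p = 0.94), so that its H151 libraries overlapped WT. Gbp3 stayed higher, at 28.9 and 24.6 CPM in WT and 37.1 and 45.7 with H151 (0.64 ± 0.12, edgeR adjusted p = 0.0023). Gbp6 was raised most among them, from 1.84 and 0.746 CPM in WT to 8.88 and 10.8 CPM (2.95 ± 0.29, edgeR adjusted p = 1.64e-05), and 29.0% of its exons lie in a neighbouring gene model and were not counted.

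Every tested Schlafen, a family that controls growth of lymphoid and myeloid cells and restricts viruses, was higher than WT under H151, 8 of 8 (5 without WT replicate 2), and H151 lowered 7 of them against Trex1-KO. Slfn4 stood at 5.74 and 4.61 CPM in WT, 175 and 173 in Trex1-KO and 58.7 and 87.7 with H151, 14.2-fold above WT (3.83 ± 0.19, edgeR adjusted p = 4.26e-08). Slfn1 stood at 3.31 and 2.91 CPM in WT, 82.8 and 77.4 in Trex1-KO and 22.7 and 31.6 with H151 (3.13 ± 0.18, edgeR adjusted p = 1.12e-07). Neither gene overlapped WT, and their levels with H151 were below those in Trex1-KO in both libraries. The list median was 0.68 with H151 and 1.57 without it.

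Many PYHIN proteins and RNA sensors stayed above WT. In the PYHIN family, whose members bind DNA and include AIM2, 11 of 12 tested members were called higher, with a median log2 fold change of 0.93 (12 and 2.20 without H151). Ifi213, whose promoter is shown above, stood at 20.8 and 18.8 CPM in WT, 277 and 268 in Trex1-KO and 102 and 115 with H151, 5.51-fold above WT (2.46 ± 0.10, edgeR adjusted p = 8.16e-09). Ifi209 stood at 78.8 and 77.3 CPM in WT, 401 and 351 in Trex1-KO and 199 and 199.9 with H151 (1.35 ± 0.08, edgeR adjusted p = 1.06e-07). Ifi204 stood at 166 and 150.0 CPM in WT, 465 and 469.9 in Trex1-KO and 243 and 275 with H151 (0.71 ± 0.07, edgeR adjusted p = 1.69e-05). All 3 were intermediate between WT and Trex1-KO. These genes are related members of 1 cluster, and reads that fit more than 1 of them were not counted.

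Of 11 RNA sensors and their adaptors, 9 were higher than WT with H151 and 9 without it, and the count was 5 without WT replicate 2. Ddx60, a helicase of the RIG-I pathway, stood at 70 and 64.4 CPM in WT, 218 and 209.8 in Trex1-KO and 129 and 139 with H151 (1.0 ± 0.08, edgeR adjusted p = 2.34e-06). Ddx58, which encodes RIG-I, stood at 103 and 82.9 CPM in WT, 263 and 252 in Trex1-KO and 128 and 140.0 with H151 (0.53 ± 0.09, edgeR adjusted p = 0.00109). Tlr13, a receptor for bacterial ribosomal RNA in endosomes, stood at 204 and 209.7 CPM in WT, 336 and 290.2 in Trex1-KO and 382 and 311 with H151 (0.74 ± 0.09, edgeR adjusted p = 9.84e-05), and was not called against Trex1-KO (0.15 ± 0.09, edgeR adjusted p = 0.738). Ddx60 and Ddx58 lay between WT and Trex1-KO, while the H151 libraries of Tlr13 overlapped those of Trex1-KO. Among PARP enzymes and their partner Dtx3l, 6 of 14 were higher and 1 lower, with 3 higher without WT replicate 2 and none lower without WT replicate 1. Parp12, which attaches ADP-ribose to viral proteins, stood at 88.4 and 78.4 CPM in WT, 205 and 187 in Trex1-KO and 114 and 116 with H151 (0.46 ± 0.07, edgeR adjusted p = 7.72e-04). Of 14 TRIM ubiquitin ligases, 7 were higher with H151, 14 were without it, and the count fell to 4 without WT replicate 1 and to 3 without WT replicate 2. Of 11 nucleases and RNA editors, 3 were higher and 1 lower (a lower call lost without either WT replicate or H151 replicate 1), and the higher ones included Samhd1, which depletes the nucleotides of cells, at 678 and 710.1 CPM in WT, 1062 and 1071 in Trex1-KO and 844 and 870.5 with H151 (0.31 ± 0.05, edgeR adjusted p = 0.00114). Trim30a, a regulator of Toll-like receptor signalling, stood at 170.0 and 145 CPM in WT, 404 and 369.9 in Trex1-KO and 211 and 231 with H151 (0.49 ± 0.08, edgeR adjusted p = 9.41e-04).

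The genes of the cGAS-STING pathway itself were also compared with WT. Of 12 members, 0 were called by edgeR (against 11.8% of all genes) and 0 by DESeq2, a count too small to set the list apart from other genes, 2 reached an unadjusted p under 0.05, and 2 were higher than WT without H151. Without H151 replicate 2, 1 member was called higher and 1 lower. Tmem173, which encodes STING, stood at 47.6 and 42.7 CPM in WT, 57 and 48.9 in Trex1-KO and 52 and 51.6 with H151 (0.20 ± 0.10, edgeR adjusted p = 0.221). Cgas stood at 12.4 and 9.49 CPM in WT, 16.5 and 20.2 in Trex1-KO and 11.9 and 11.7 with H151, which was -0.64 ± 0.15 against Trex1-KO (edgeR adjusted p = 0.0462, a call lost under 6 of 11 alternatives, among them 3 of the 4 libraries left out) and 0.11 ± 0.16 against WT (edgeR adjusted p = 0.75). The H151 libraries lay inside the WT range for Cgas and above it for Tmem173. Ikbke, which encodes a kinase related to TBK1, stood at 276 and 241 CPM in WT, 355 and 334 in Trex1-KO and 267 and 254 with H151 (0.01 ± 0.07, edgeR adjusted p = 0.96). Ifnb1, the interferon the pathway induces, had at most 2 counts in any of the 6 libraries, under the floor of 3 counts, so no change in it was detectable at this depth.

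Downstream of the interferon receptor, 7 of 27 signalling genes were higher than WT with H151 and 1 was lower (12 and 1 without H151), and 4 were higher without WT replicate 1, or without WT replicate 2. Irf7, the factor that amplifies interferon production, stood at 83.6 and 66.9 CPM in WT, 479 and 445 in Trex1-KO and 211 and 274 with H151 (1.69 ± 0.12, edgeR adjusted p = 1.23e-06). Stat2 stood at 118 and 109 CPM in WT, 350.4 and 322 in Trex1-KO and 159 and 166 with H151 (0.52 ± 0.07, edgeR adjusted p = 1.47e-04). For both factors both H151 libraries were above both WT libraries and below both Trex1-KO libraries. Socs2, a feedback inhibitor of cytokine receptors, was the lower member, at 8.02 and 7.05 CPM in WT and 3.42 and 3.29 with H151 (-1.16 ± 0.24, edgeR adjusted p = 0.00494). Irf2, the factor by which the study defined M7core, stood at 94.1 and 91.3 CPM in WT, 125 and 130.1 in Trex1-KO and 109 and 111 with H151 (0.25 ± 0.06, edgeR adjusted p = 0.0151), a call that was lost without either WT replicate, without H151 replicate 2 and under scaling by total counts. Irf1 was not called (0.07 ± 0.09, edgeR adjusted p = 0.683).

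M7core is the study's list of IRF2-bound genes that rise after stimulation of cGAS in mouse fibroblasts. Its module had been singled out in part on Trex1-KO BMDMs, so its direction in these libraries is not independent evidence. Of 159 genes, 152 were tested. Within the list, genes that the study assigns to an interferon module and genes outside these modules are given apart. Of the 41 tested genes in an interferon module, 31 were called higher with H151 and 41 without it, with medians of 0.47 and 1.26. Outside the interferon modules, 55 of 111 were higher with H151 and 2 lower, against 83 and 3 without it, and the medians were 0.37 and 0.68. Scaling by total counts gave 28 higher genes in an interferon module and 45 outside these modules. Of 61 tested targets of RelB, a subunit of the noncanonical NF-kappaB pathway, 36 were higher with H151 and 53 without it. Of the 91 other genes, 50 were higher and 2 lower with H151. In each of these subsets of M7core, the count of higher genes was lowest without WT replicate 2.

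Several members of M7core stayed above WT. Nlrc5, the factor that switches on MHC class I genes, stood at 61.3 and 58.4 CPM in WT, 168 and 162 in Trex1-KO and 115 and 119 with H151 (0.97 ± 0.06, edgeR adjusted p = 4.66e-07). Lgals3bp, a secreted galectin-binding protein, stood at 479 and 437 CPM in WT, 1148 and 1047 in Trex1-KO and 812 and 866 with H151 (0.87 ± 0.06, edgeR adjusted p = 1.14e-06). Helz2, a helicase that acts as a nuclear receptor coactivator, stood at 83.7 and 70.1 CPM in WT, 309.7 and 271 in Trex1-KO and 136 and 145 with H151 (0.87 ± 0.09, edgeR adjusted p = 2.10e-05). These 3 genes lay between WT and Trex1-KO. Tent5a, a poly(A) polymerase, stood at 130.1 and 137 CPM in WT, 195 and 207 in Trex1-KO and 187 and 188 with H151 (0.49 ± 0.06, edgeR adjusted p = 1.80e-04), and was not called against Trex1-KO (-0.10 ± 0.06, edgeR adjusted p = 0.765). At the other end were members that were called without H151 and not with it. Cxcl10 stood at 78.2 and 58.7 CPM in Trex1-KO and 9.78 and 16.7 CPM with H151, between the 2 WT libraries at 25.8 and 5.63 CPM (-0.21 ± 0.45, edgeR adjusted p = 0.832). Its direction rested on the WT library, since it was called lower than WT without WT replicate 2 (-0.96, edgeR adjusted p = 0.0323) and higher without WT replicate 1 (1.24, edgeR adjusted p = 0.0343). Mlkl, the executor of necroptosis, stood at 15 and 17.4 CPM in WT, 26.8 and 30.9 in Trex1-KO and 17.1 and 22.5 with H151 (0.30 ± 0.14, edgeR adjusted p = 0.225), and its H151 and WT libraries overlapped. Tor3a, an ATPase of the endoplasmic reticulum, stood at 84.7 and 67 CPM in WT, 199 and 187 in Trex1-KO and 87.4 and 95.4 with H151 (0.27 ± 0.10, edgeR adjusted p = 0.0924), and was called without WT replicate 1. The members called lower were Ccdc80, a matrix-associated protein at 76.2 and 63.1 CPM in WT and 38 and 31 with H151 (-1.02 ± 0.14, edgeR adjusted p = 2.32e-04), and A4galt (-1.67 ± 0.41, edgeR adjusted p = 0.0162), whose call was lost without either WT replicate and without H151 replicate 2.

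**Figure D3:**
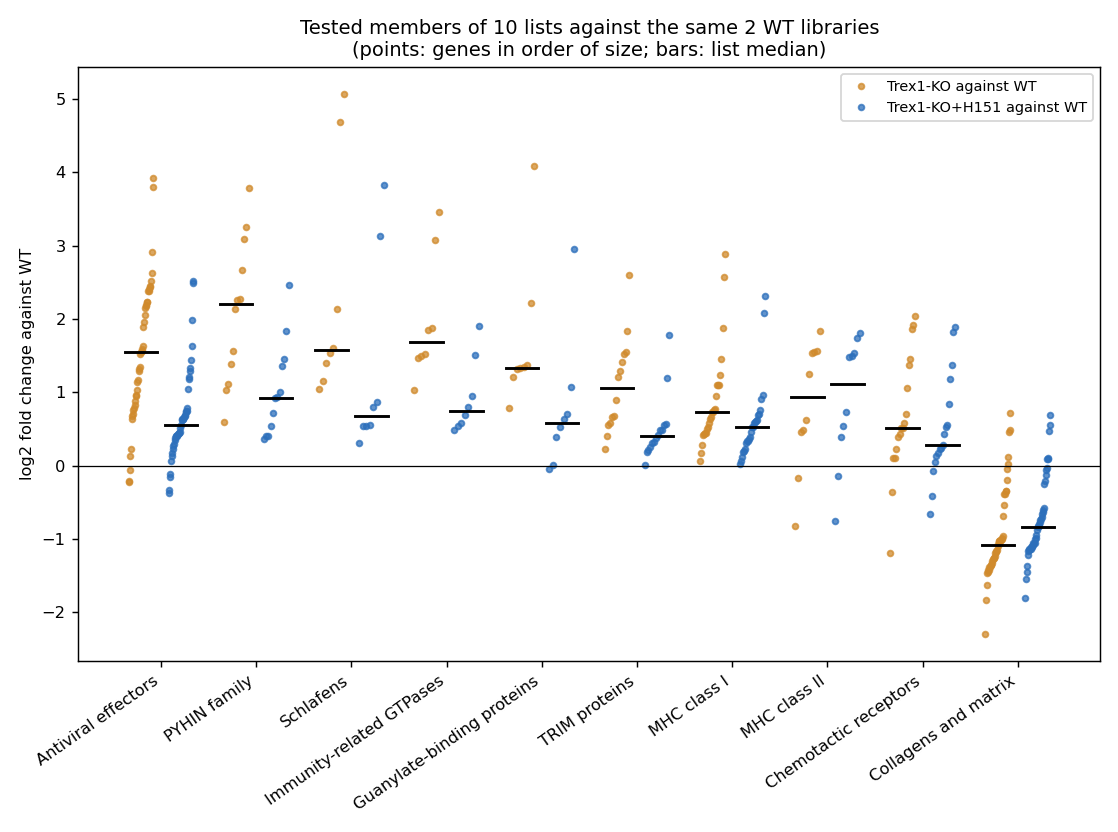
Log2 fold change against WT of each tested member of 10 gene lists, in Trex1-KO (orange) and in Trex1-KO+H151 (blue), with points for genes in order of size and black bars for the list median. Both groups are set against the same WT libraries, the median of the Schlafens is 1.57 without H151 and 0.68 with it, that of MHC class II is 0.94 and 1.11, and that of the matrix list is -1.08 and -0.84.

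Most genes of MHC class I and peptide loading stayed above WT. For MHC class I and peptide loading, 20 of 25 tested members were higher than WT with H151 and 22 without it, and 8 were lower with H151 than without (15 at an unadjusted p under 0.05), with medians against WT of 0.52 and 0.73. H2-Q7, a class Ib molecule, stood at 11.6 and 9.29 CPM in WT, 62.2 and 61.4 in Trex1-KO and 42.5 and 45.5 with H151 (2.08 ± 0.11, edgeR adjusted p = 6.11e-08). H2-D1, a classical class I heavy chain, stood at 2892 and 2962 CPM in WT, 4504 and 4556 in Trex1-KO and 4201 and 4622 with H151 (0.59 ± 0.05, edgeR adjusted p = 4.87e-06, and -0.04 ± 0.05 against Trex1-KO). B2m, the light chain of class I, stood at 2105 and 2053 CPM in WT, 3311 and 3279 in Trex1-KO and 2904 and 3076 with H151 (0.52 ± 0.05, edgeR adjusted p = 5.66e-06). Tap1, a subunit of the peptide transporter, stood at 92.5 and 81.7 CPM in WT, 214 and 196 in Trex1-KO and 129 and 135 with H151 (0.60 ± 0.07, edgeR adjusted p = 9.79e-05). All 4 were above WT in both H151 libraries, and Tap1, H2-Q7 and B2m were below both Trex1-KO libraries, with B2m not called against Trex1-KO. Class I genes are closely related, and reads that fit several of them were left out.

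As many MHC class II genes were called with H151 as without it. In both comparisons with WT, 8 of 10 members were higher than WT and the medians were 1.11 with H151 and 0.94 without. Ciita, the master activator of class II genes, stood at 3.17 and 3.32 CPM in WT, 9.13 and 6.4 in Trex1-KO and 11.6 and 10.3 with H151 (1.75 ± 0.22, edgeR adjusted p = 1.30e-04). H2-Aa, an alpha chain, stood at 14.9 and 17.1 CPM in WT, 58.3 and 56.2 in Trex1-KO and 58.3 and 54.5 with H151 (1.81 ± 0.09, edgeR adjusted p = 5.02e-08). H2-Eb1, a beta chain, stood at 13.4 and 14.7 CPM in WT, 42.5 and 41 in Trex1-KO and 35.9 and 42.5 with H151 (1.48 ± 0.11, edgeR adjusted p = 1.32e-06). Cd74, the invariant chain, stood at 73.7 and 65.7 CPM in WT, 207 and 198 in Trex1-KO and 213 and 192 with H151 (1.54 ± 0.07, edgeR adjusted p = 3.22e-08). In each of these genes both H151 libraries lay above both WT libraries. Between Trex1-KO+H151 and Trex1-KO, edgeR and DESeq2 each called 0 of the 10 members, and 1 reached an unadjusted p under 0.05. Of 5 tested dendritic cell markers, 2 were higher than WT (1 without WT replicate 1, and 0 without WT replicate 2 or without H151 replicate 2), their summed level was 211 and 205 CPM in WT and 238 and 318 CPM with H151, Ccr7 was at 0, and their part in the class II result was not tested.

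Several receptors that guide the migration of macrophages stayed above WT. Of 17 chemotactic receptors, 9 were higher than WT with H151, and 13 were higher and 1 lower without it. Ccr2, the receptor for CCL2, stood at 20.3 and 17.3 CPM in WT, 78.4 and 76.3 in Trex1-KO and 64.5 and 67.6 with H151 (1.82 ± 0.10, edgeR adjusted p = 8.95e-08). C5ar1, the receptor for the complement fragment C5a, stood at 325 and 360.0 CPM in WT, 442 and 455 in Trex1-KO and 513 and 489 with H151 (0.55 ± 0.06, edgeR adjusted p = 4.29e-05). Ccr1, a receptor for several CC chemokines, stood at 4.49 and 3.66 CPM in WT, 6.41 and 6.86 in Trex1-KO and 11 and 10.1 with H151 (1.37 ± 0.19, edgeR adjusted p = 3.42e-04). For Ccr2 both H151 libraries lay just below the range of Trex1-KO, with a log2 fold change against it of -0.23 ± 0.09. Ccr1 and Ccr2 lie together on chromosome 9, at least 14.9 Mb from Trex1, a region described further on.

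Of 20 chemokines, 6 were higher and 2 lower than WT (9 and 2 without H151), and 1 was lower without WT replicate 1 or without either H151 replicate. Ccl4, a chemokine that macrophages make, stood at 12.3 and 11.4 CPM in WT, 23.8 and 26.6 in Trex1-KO and 19.7 and 19.7 with H151 (0.74 ± 0.13, edgeR adjusted p = 0.00164). Ccl6, a chemokine of myeloid cells, stood at 312 and 396 CPM in WT, 452 and 529 in Trex1-KO and 491 and 540.3 with H151 (0.54 ± 0.10, edgeR adjusted p = 0.00242). Both stayed above WT in both libraries. Cxcl12, a product of stromal cells that retains progenitors in the marrow, stood at 272 and 229 CPM in WT, 72.3 and 74.7 in Trex1-KO and 96.5 and 64.8 with H151 (-1.64 ± 0.14, edgeR adjusted p = 3.74e-06), so that it was far below WT in both knockout groups.

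Some inflammatory mediators remained different from WT. Of 19 mediators, 3 were higher and 3 lower with H151, against 10 and 2 without it, and the medians were 0.09 and 0.94. Testing every gene with a count gave 6 lower, and between Trex1-KO+H151 and Trex1-KO 2 members were called lower by edgeR and 1 by DESeq2. Il18bp, a secreted inhibitor of interleukin 18, stood at 41.7 and 48.7 CPM in WT, 89.3 and 86.7 in Trex1-KO and 104 and 86.4 with H151 (1.07 ± 0.09, edgeR adjusted p = 6.33e-06). Lcn2, an iron-sequestering protein that neutrophil precursors also make, stood at 0.662 and 0.678 CPM in WT, 9.36 and 7.25 in Trex1-KO and 7.98 and 5.58 with H151 (3.31 ± 0.31, edgeR adjusted p = 1.16e-05). Csf1, the growth factor of macrophages, was lower, at 181 and 149 CPM in WT, 86.4 and 80.7 in Trex1-KO and 97 and 92 with H151 (-0.81 ± 0.08, edgeR adjusted p = 2.74e-05). Of 15 NF-kappaB subunits and inhibitors, 2 were higher with H151 and 9 without it, with 1 without WT replicate 1 or H151 replicate 1, and 0 higher and 2 lower without WT replicate 2, and the share called was 13.3%, near the 11.8% of all genes. Of 13 Toll-like receptors and co-receptors, 3 were higher and 1 lower with H151, with 1 higher without WT replicate 1 or H151 replicate 2 and 0 without WT replicate 2, and the lower call was lost without WT replicate 1 or H151 replicate 2.

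Of 25 genes of programmed cell death, 8 were higher and 1 lower with H151 (5 higher without WT replicate 1 or without H151 replicate 2, and 4 without WT replicate 2, with the lower call lost without WT replicate 1). Bcl2a1d, a relative of BCL2 that protects myeloid cells, stood at 7.51 and 10 CPM in WT, 24.4 and 21.4 in Trex1-KO and 24.4 and 18.8 with H151 (1.29 ± 0.16, edgeR adjusted p = 1.39e-04). Casp1, the caspase that matures interleukin 1 beta, stood at 78.8 and 75.8 CPM in WT, 121 and 110.1 in Trex1-KO and 101 and 108 with H151 (0.43 ± 0.07, edgeR adjusted p = 9.55e-04). Both were above WT in both libraries. Of 12 costimulatory and checkpoint ligands, 4 were higher (6 without H151). Cd274, which encodes PD-L1, stood at 29.3 and 28.8 CPM in WT, 70.9 and 67.9 in Trex1-KO and 48.8 and 58.1 with H151 (0.88 ± 0.11, edgeR adjusted p = 8.46e-05).

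The largest rises that the rule named included genes of the Ly6 and apolipoprotein L families, of which several were far above WT in both knockout groups. Ly6a (chromosome 15, 74994877 to 74998031), which encodes the surface antigen Sca-1 of stem and activated immune cells, stood at 11.6 and 11 CPM in WT, 412 and 436 in Trex1-KO and 363 and 529.7 with H151. The H151 libraries spanned the range of the Trex1-KO libraries, 39.5-fold above WT (5.30 ± 0.16, edgeR adjusted p = 2.86e-10), and the difference from Trex1-KO was 0.07 ± 0.12. Ly6e, a GPI-anchored protein that restricts coronaviruses, stood at 438 and 383 CPM in WT, 1658 and 1480 in Trex1-KO and 1311 and 1318 with H151 (1.68 ± 0.07, edgeR adjusted p = 8.23e-09). Of 5 tested Ly6 genes, 3 were higher with H151 and 4 without it. Between Trex1-KO+H151 and Trex1-KO, edgeR called 0 of the 5, DESeq2 called 1 lower, and 1 reached an unadjusted p under 0.05. Apol9b, a member of the apolipoprotein L family, stood at 0.294 and 0.136 CPM in WT, 10.9 and 12.2 in Trex1-KO and 3.5 and 5.04 with H151 (4.29 ± 0.40, edgeR adjusted p = 1.13e-05), and Apol7c at 0.368 and 0.0678 CPM in WT, 3.62 and 2.37 in Trex1-KO and 3.01 and 1.88 with H151 (3.46 ± 0.59, edgeR adjusted p = 0.00132). Of 12 family members 9 had counts and 3 were tested, and all 3 were higher than WT with H151. WT levels of Apol9b rested on 4 and 2 counts. Apol9b and Apol7c were under the minimum count of 10 in WT, so they entered the test through the knockout libraries, where they were high. The tally is therefore not independent of the filter. The other genes that the rule for the largest rises named included Chil3, a chitinase-like protein of activated macrophages and neutrophils, at 0 and 0.949 CPM in WT, 6.41 and 6.92 in Trex1-KO and 8.72 and 7.59 with H151 (4.02 ± 0.50, edgeR adjusted p = 1.24e-04), and Gm1966 (3.01 ± 0.14, edgeR adjusted p = 1.86e-08).

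Surface receptors of macrophages were affected in part. Of 6 Fc gamma receptor genes, which bind antibodies, 4 were higher with H151. Fcgr4 stood at 49.4 and 59.2 CPM in WT, 149 and 149 in Trex1-KO and 122 and 131 with H151 (1.22 ± 0.08, edgeR adjusted p = 4.66e-07), and Fcgr1 at 241 and 225 CPM in WT, 493 and 533 in Trex1-KO and 335 and 391 with H151 (0.64 ± 0.08, edgeR adjusted p = 1.16e-04). Of the MS4A family of tetraspan proteins, 5 of 8 were higher (7 without H151), led by Ms4a4c at 8.32 and 5.56 CPM in WT, 63.2 and 66.3 in Trex1-KO and 23.3 and 37.4 with H151 (2.15 ± 0.21, edgeR adjusted p = 1.72e-05). For Fcgr1, Fcgr4 and Ms4a4c both H151 libraries lay below both libraries of the untreated knockout. Among 16 complement genes, 5 were higher and 1 lower, with 3 higher without WT replicate 2. C4b, which is cleaved in the classical pathway, stood at 8.1 and 5.76 CPM in WT, 24.8 and 22.4 in Trex1-KO and 20.4 and 22.9 with H151 (1.65 ± 0.15, edgeR adjusted p = 1.11e-05). C2, a protease of the same pathway, was also higher (3.58 ± 0.29, edgeR adjusted p = 3.51e-06), with 46.9% of its exons inside another gene and not counted. Of 16 C-type lectins, 5 were higher and 3 lower, and 2 or 3 were higher when any of the 4 libraries was left out. Clec10a, a lectin of alternatively activated macrophages, was lower, at 60.9 and 66.2 CPM in WT, 42.3 and 45.9 in Trex1-KO and 34.9 and 32.5 with H151 (-0.92 ± 0.09, edgeR adjusted p = 1.79e-05).

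Of 16 genes of macrophage identity, 4 were higher and the other 12 were not called. Scaling by total counts gave 2 higher and 2 lower, testing every gene with a count gave 3 lower, and 2 were lower without WT replicate 1 and 1 without H151 replicate 1. Cd68, a lysosomal glycoprotein, stood at 773 and 803 CPM in WT, 1110 and 1022 in Trex1-KO and 1127 and 1016 with H151 (0.44 ± 0.06, edgeR adjusted p = 2.95e-04). Mertk, a receptor for apoptotic cells, stood at 373 and 382 CPM in WT and 390.4 and 369 with H151 (0.01 ± 0.05, edgeR adjusted p = 0.954). Of 18 scavenger receptors and lipid efflux genes, 7 were higher and 2 lower (1 lower without WT replicate 1). Nr1h3, which encodes the oxysterol receptor LXR alpha, stood at 13 and 10.7 CPM in WT, 30 and 30.8 in Trex1-KO and 23.7 and 22.7 with H151 (0.97 ± 0.12, edgeR adjusted p = 9.79e-05). Abcg1 and Lpl are among its known targets. Abcg1, which exports cholesterol, stood at 175 and 173 CPM in WT, 267 and 265 in Trex1-KO and 256 and 253 with H151 (0.54 ± 0.06, edgeR adjusted p = 2.22e-05), and Lpl, which hydrolyses triglycerides, at 1326 and 1080 CPM in WT, 1912 and 1976 in Trex1-KO and 2351 and 1990 with H151 (0.85 ± 0.10, edgeR adjusted p = 5.00e-05). Marco, a scavenger receptor for bacteria, fell from 147 and 42 counts in the WT libraries to 0 and 3 with H151, and the pooled WT level was 60.4 times that with H151 (95% counting interval 20.3 to 295), a ratio of 25.8 without WT replicate 1 and 98 without WT replicate 2.

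A small group of genes was not at the level of Trex1-KO but rose with H151 itself. Ahrr, the repressor that the aryl hydrocarbon receptor induces, stood at 16.4 and 18.3 CPM in WT, 16.1 and 14.6 in Trex1-KO and 32 and 32.3 with H151. It was higher with H151 than in WT (0.89 ± 0.12, edgeR adjusted p = 3.08e-04) and than in Trex1-KO (1.06 ± 0.13, edgeR adjusted p = 2.19e-04). Ahr itself, the receptor, stood at 21.9 and 22.2 CPM in WT, 15.1 and 14.4 in Trex1-KO and 14.9 and 12 with H151, below WT (-0.72 ± 0.14, edgeR adjusted p = 0.0034). Notch1, a receptor for ligands on neighbouring cells, stood at 94.8 and 95.7 CPM in WT, 92.5 and 85 in Trex1-KO and 166 and 145 with H151, above WT (0.71 ± 0.07, edgeR adjusted p = 3.07e-05) and above Trex1-KO (0.81 ± 0.08, edgeR adjusted p = 2.86e-05). Dtx4, a ubiquitin ligase of the Notch pathway, stood at 63.7 and 64.5 CPM in WT, 73.6 and 71.2 in Trex1-KO and 91.6 and 87.9 with H151, and was called against WT (0.48 ± 0.07, edgeR adjusted p = 2.74e-04) and against Trex1-KO (0.31 ± 0.07, edgeR adjusted p = 0.0239). The call of Dtx4 against Trex1-KO was lost by DESeq2, without either Trex1-KO replicate and without H151 replicate 1. The H151 libraries of Ahrr, Notch1 and Dtx4 lay above the other 4 libraries. Of 12 Notch pathway genes, 2 (16.7%, near the 11.8% of all genes) were higher than WT with H151, 4 when every gene with a count was tested, and without H151 edgeR and DESeq2 each called 0, with 3 at an unadjusted p under 0.05.

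Mmp8, a collagenase, stood at 7.14 and 7.39 CPM in WT, 8.45 and 9.63 in Trex1-KO and 26.9 and 23.6 with H151, above WT (1.79 ± 0.17, edgeR adjusted p = 1.13e-05) and above Trex1-KO (1.47 ± 0.16, edgeR adjusted p = 1.27e-04). Pf4, a chemokine of platelets and macrophages, stood at 135 and 159.6 CPM in WT, 173 and 193 in Trex1-KO and 283 and 266 with H151 (0.89 ± 0.09, edgeR adjusted p = 1.20e-05, and 0.58 ± 0.08 against Trex1-KO). Neither gene overlapped between the H151 libraries and the other 4. Pf4 is also a megakaryocyte marker, and 2 of 4 tested markers of that type were higher than WT (1 without WT replicate 1), with a summed level of 139 and 164 CPM in WT and 288 and 272 CPM with H151, almost all of it Pf4. Their part in the result was not tested. Ptgs1, the constitutive cyclooxygenase, was below WT in Trex1-KO (-0.42 ± 0.09) and above WT with H151, at 43.3 and 44 CPM in WT, 33.2 and 32.1 in Trex1-KO and 58.7 and 56.6 with H151 (0.40 ± 0.08, edgeR adjusted p = 0.00577, and 0.82 ± 0.09, edgeR adjusted p = 7.32e-05 against Trex1-KO), and the call against WT was lost without WT replicate 1. Of 20 targets of the oxidative stress factor NRF2, 4 were higher and 1 lower than WT with H151, and 2 were higher without WT replicate 1 and 1 without WT replicate 2, while the lower call was lost without either WT replicate or H151 replicate 1. Osgin1 and Pdgfb were chosen after their values were seen. Pdgfb, a growth factor of stromal cells, stood at 52 and 59 CPM in WT, 57.1 and 54.9 in Trex1-KO and 85.8 and 81.1 with H151 (0.59 ± 0.08, edgeR adjusted p = 2.64e-04). Osgin1, a growth inhibitor induced by oxidative stress, stood at 21.6 and 24.3 CPM in WT, 23.8 and 21.8 in Trex1-KO and 34.3 and 32.2 with H151 (0.53 ± 0.10, edgeR adjusted p = 0.00399), a call lost without WT replicate 1.

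Among metabolic genes, members of the lysosome list were called higher than WT and members of the cholesterol list lower. Of 32 lysosomal genes, 16 were higher with H151 and 1 lower (16 and 2 without H151), and 8 were higher without WT replicate 1 or without WT replicate 2. Ctsl, a cathepsin, stood at 942 and 1029 CPM in WT, 1203 and 1217 in Trex1-KO and 1480 and 1571 with H151 (0.63 ± 0.06, edgeR adjusted p = 6.33e-06), with 26.8% of its exons shared and not counted. Psap, the precursor of the saposins that activate sphingolipid hydrolases, stood at 8680 and 8718 CPM in WT, 10899 and 10990 in Trex1-KO and 10891 and 11244 with H151 (0.35 ± 0.04, edgeR adjusted p = 4.63e-05). Of 23 genes of cholesterol synthesis, 7 were lower, with 3 lower without WT replicate 1. Cyp51, the lanosterol demethylase, stood at 39.6 and 31.2 CPM in WT, 24.2 and 24.1 in Trex1-KO and 23.1 and 19.9 with H151 (-0.72 ± 0.13, edgeR adjusted p = 0.00221).

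Of 82 cytosolic ribosomal protein genes, 14 were lower than WT, with a median log2 fold change of -0.25. That count was unstable, at 4 without WT replicate 1, 7 without WT replicate 2, 5 without H151 replicate 1 and 58 without H151 replicate 2. Of 76 nuclear genes of the respiratory chain, 5 were lower (6.58%, near the 5.04% of all genes), and the count was 0 without WT replicate 1 or without H151 replicate 1, 2 without WT replicate 2 and 36 without H151 replicate 2. Of 13 genes encoded in mitochondrial DNA, 7 were lower (3 without WT replicate 1), with a median of -0.32. Mitochondrial genes took 1.69% and 1.66% of the counts in WT and 1.45% and 1.28% with H151. Of 30 genes of glycolysis and the hypoxia response, 6 were higher and 1 lower, with 2 higher without WT replicate 1 and 3 without any of the other 3 libraries in turn, which also ended the lower call. Ndrg1, a stress-induced gene, stood at 43.3 and 41.1 CPM in WT, 52.8 and 57 in Trex1-KO and 65.5 and 65.3 with H151 (0.63 ± 0.08, edgeR adjusted p = 9.69e-05).

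Most genes of the extracellular matrix were below WT. Of 44 tested collagens and matrix genes, 32 were lower than WT with H151 (34 lower without H151), against 5.04% of all genes, and the median log2 fold change was -0.84 (-1.08 without H151). Col1a2, a chain of type I collagen, stood at 1175 and 1089 CPM in WT, 503 and 418 in Trex1-KO and 567 and 518 with H151 (-1.06 ± 0.09, edgeR adjusted p = 5.14e-06). Col2a1, the collagen of cartilage, stood at 101 and 83 CPM in WT, 18.8 and 18.7 in Trex1-KO and 26.7 and 25.9 with H151 (-1.81 ± 0.10, edgeR adjusted p = 1.12e-07, and 0.49 ± 0.12 against Trex1-KO, edgeR adjusted p = 0.0435, a call lost without any 1 of the 4 libraries). Fn1, fibronectin, stood at 1456 and 1258 CPM in WT, 664 and 535 in Trex1-KO and 767 and 642 with H151 (-0.95 ± 0.11, edgeR adjusted p = 5.00e-05). Serpinh1, a collagen chaperone, stood at 264 and 225 CPM in WT, 99.3 and 83.3 in Trex1-KO and 117 and 110.3 with H151 (-1.10 ± 0.09, edgeR adjusted p = 3.73e-06). In all 4 genes every knockout library lay below both WT libraries.

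Markers of stromal cells moved with the matrix genes. Of 9 tested fibroblast and stromal cell markers (of 10), 7 were lower than WT, and their summed level was 2720 and 2480 CPM in WT, 1220 and 999 in Trex1-KO and 1387 and 1241 with H151. The summed level of chondrocyte markers was 107 and 89.5 CPM in WT and 30.3 and 28.9 CPM with H151, with 1 of 4 called lower. That gene was Col2a1, which made up almost all of the sum and is also in the matrix list. The summed macrophage markers stayed between 30800 and 33000 CPM in the 6 libraries. The part of these markers in the matrix result was not tested. Matrix metalloproteinases and their inhibitors were split, with 5 of 21 higher and 8 lower. Mmp12, the elastase of macrophages, was higher, at 9.5 and 6.91 CPM in WT, 18.1 and 15.2 in Trex1-KO and 30.1 and 24.2 with H151 (1.73 ± 0.18, edgeR adjusted p = 2.66e-05), whereas Mmp2, a gelatinase of fibroblasts, was lower, at 52.5 and 48.7 CPM in WT, 28.4 and 24.5 in Trex1-KO and 28.2 and 27.6 with H151 (-0.86 ± 0.11, edgeR adjusted p = 1.70e-04). The rule for the largest falls also named Svep1, a matrix protein (-1.82 ± 0.23, edgeR adjusted p = 1.34e-04), Fgfr2, a growth factor receptor (-1.61 ± 0.29, edgeR adjusted p = 0.0021), and Foxc1, a factor of mesenchymal cells (-1.58 ± 0.23, edgeR adjusted p = 3.68e-04). Tmem119, a marker of microglia and osteoblasts, fell from 15.1 and 12 CPM in WT to 4.07 and 3.36 CPM with H151 (-1.87 ± 0.21, edgeR adjusted p = 4.10e-05).

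**Figure D4:**
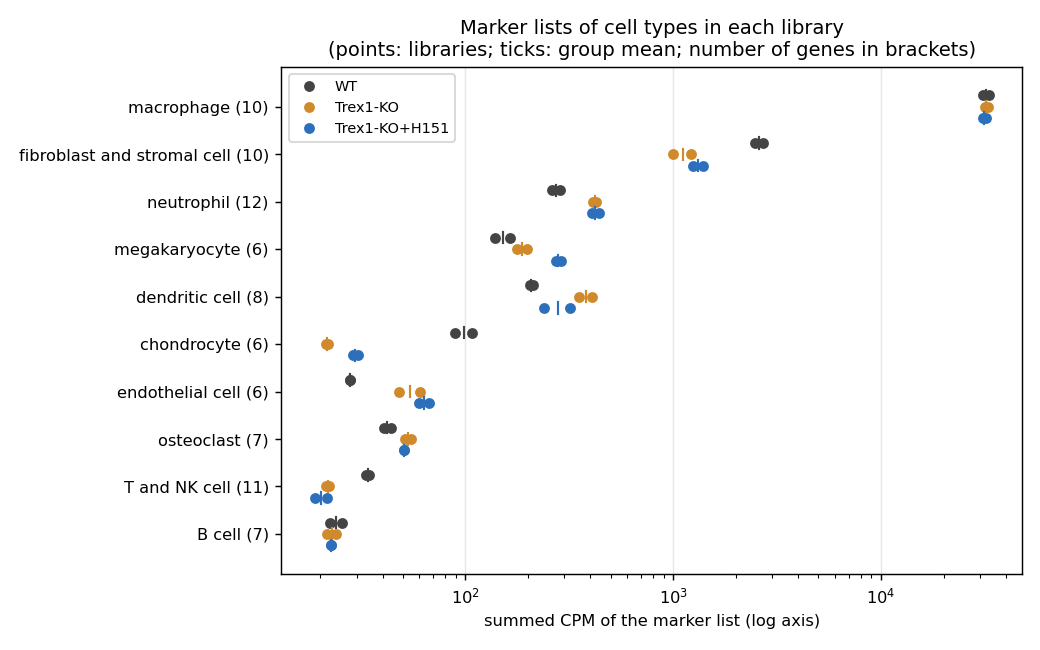
Summed level of each cell type's markers (CPM on a log10 axis) in the WT, Trex1-KO and Trex1-KO+H151 libraries. Fibroblast and chondrocyte markers are lower in all 4 knockout libraries than in WT, neutrophil and endothelial markers are higher, and macrophage markers lie at the same height in every library.

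Granule genes of neutrophils and their precursors were above WT in both knockout groups. Of 8 tested neutrophil markers (of 12), 7 were higher than WT with H151, and the summed level was 259.9 and 287 CPM in WT, 428 and 412 in Trex1-KO and 438 and 407 with H151. That sum includes the 1 tested marker that was not called, and Ngp, S100a9 and Ltf made up little of it in WT. Ngp, a granule protein, stood at 1.47 and 1.76 CPM in WT, 17.7 and 20.1 in Trex1-KO and 20.9 and 19.3 with H151 (3.62 ± 0.20, edgeR adjusted p = 1.06e-07). S100a9, a subunit of calprotectin, stood at 2.72 and 3.19 CPM in WT, 17.1 and 26.7 in Trex1-KO and 21.7 and 23.2 with H151 (2.92 ± 0.23, edgeR adjusted p = 2.15e-06), and Ltf, lactoferrin, at 1.99 and 0.813 CPM in WT, 14.6 and 14.6 in Trex1-KO and 16.9 and 11.7 with H151 (3.36 ± 0.32, edgeR adjusted p = 1.19e-05). Of 6 endothelial markers, 5 were higher, with a summed level of 27.8 and 27.9 CPM in WT and 66.8 and 59.6 CPM with H151. Cdh5, the cadherin of endothelial junctions, stood at 6.11 and 6.78 CPM in WT, 16.3 and 12.7 in Trex1-KO and 20.4 and 17.1 with H151 (1.53 ± 0.17, edgeR adjusted p = 3.69e-05). The genes Ngp and Ltf, and 1 further of the 7, lie within 5 Mb of Trex1, in the segment described below. Levels of all these genes with H151 did not overlap WT, and their part in the results on Lcn2 and Chil3, which neutrophils also express, was not tested.

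Around the Trex1 gene on chromosome 9, 133 genes within 5 Mb were tested, and 24 of them (18.0%, against 11.8% of all genes) were called, 10 higher and 14 lower, and 3 of the 10 are neutrophil markers. Higher calls there numbered 6 without WT replicate 1 and 6 without WT replicate 2. Between 5 and 10 Mb the share was 18.9% of 53 genes, between 10 and 20 Mb 8.93% of 112, between 20 and 40 Mb 10.9% of 101, and farther away 14.5% of 415. Without H151, 22.6% of the genes within 5 Mb were called against WT, beside 21.7% of those over 40 Mb away and 16.4% of all genes. Atrip (chromosome 9, 109057933 to 109074124), whose exons contain Trex1, stood at 14.1 and 17.4 CPM in WT, 64.8 and 70.4 in Trex1-KO and 55.1 and 57.1 with H151 (1.83 ± 0.10, edgeR adjusted p = 8.96e-08). Glb1, the lysosomal beta-galactosidase (chromosome 9, 114401076 to 114474898), which lies just beyond that window, stood at 125 and 124 CPM in WT, 65.4 and 58.7 in Trex1-KO and 61.3 and 62.8 with H151 (-1.0 ± 0.07, edgeR adjusted p = 8.66e-07). Ccrl2, an atypical chemerin receptor (chromosome 9, 111054486 to 111057519), was higher at 15.2 and 18.1 CPM in WT, 66.4 and 55.1 in Trex1-KO and 38.4 and 37.1 with H151 (1.18 ± 0.12, edgeR adjusted p = 1.65e-05), and Dusp7, a phosphatase of MAP kinases (chromosome 9, 106368632 to 106375724), was lower (-0.65 ± 0.07, edgeR adjusted p = 5.47e-05). Genotype and the origin of the chromosome segment that carries the deletion cannot be told apart here.

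**Figure D5:**
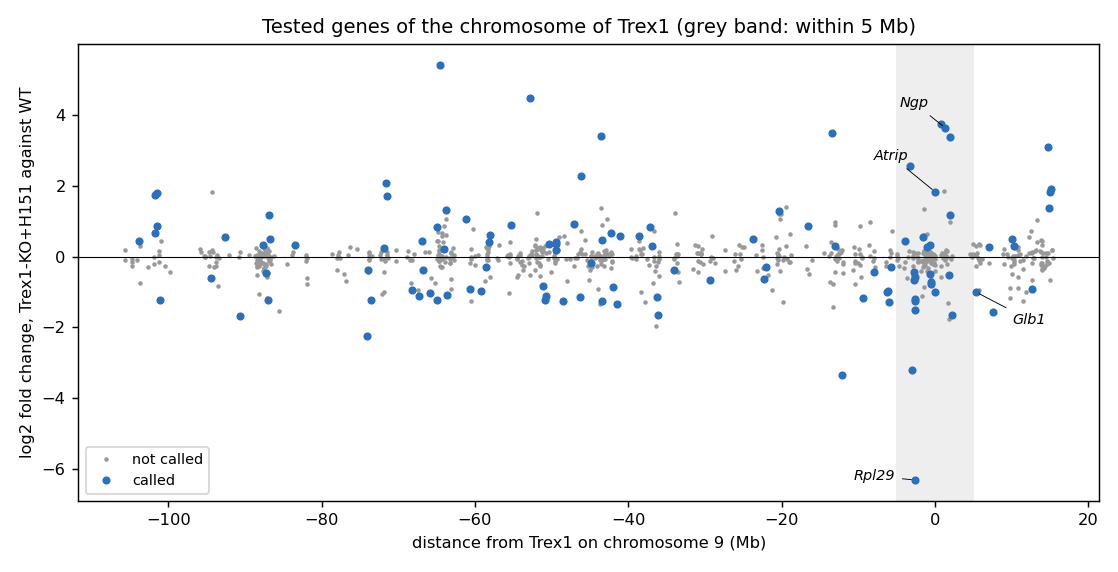
Log2 fold change of Trex1-KO+H151 against WT for the tested genes of chromosome 9 by their distance from Trex1 in Mb, called genes in blue and the others in grey, with the 5 Mb on each side shaded. Rpl29 is the lowest point, Ngp and Atrip are above 0 inside the shaded band, and Gm10709, which had 0 counts in the knockout libraries compared, is left out.

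Among genes with a mean log2 CPM of at least 2 and libraries that did not overlap, the largest fall was that of Rpl29 (chromosome 9, 106429454 to 106431568), a ribosomal protein gene 2.63 Mb from Trex1. It stood at 289 and 277 CPM in WT, 4.15 and 3.3 in Trex1-KO and 3.83 and 3.36 with H151 (-6.30 ± 0.10, edgeR adjusted p = 2.23e-13), which was 3926 and 4094 counts in the WT libraries and 47 and 50 with H151. Within the same limits the largest rise was that of Gm8210 (chromosome 1, 43189156 to 43189638 on GRCm38), a processed pseudogene of Rpl29, with 2 and 0 counts in WT and 86 and 144 with H151, a pooled ratio of 120 (95% counting interval 32.8 to 997). Over the 480 bases of the Rpl29 coding sequence the reference sequences of Rpl29 and Gm8210 differ by 3 substitutions, C72A, C300T and T423C, counted from 1 at the first base of the coding sequence, with the base of Rpl29 first. The stretches are shown because within the coding sequence a read tells these 2 genes apart only at these positions, which are in capitals.
Rpl29, bases 57 to 87: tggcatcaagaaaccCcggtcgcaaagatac
Gm8210, bases 57 to 87: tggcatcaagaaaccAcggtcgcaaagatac
Rpl29, bases 285 to 315: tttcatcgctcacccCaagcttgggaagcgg
Gm8210, bases 285 to 315: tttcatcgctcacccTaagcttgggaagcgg
Rpl29, bases 408 to 438: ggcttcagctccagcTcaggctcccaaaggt
Gm8210, bases 408 to 438: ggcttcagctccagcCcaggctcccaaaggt

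Of 26 pseudogenes that match Rpl29 with at least 95% identity over at least 400 bases, 4 had at least 10 counts. Together the 26 had 205 and 191 counts in WT and 194 and 452 with H151, so that Rpl29 and its pseudogenes summed to 4131 and 4285 counts in WT and 241 and 502 with H151. Reads that fit several genes were not counted, and whether the messenger RNA itself fell or its reads lost their unique place was not tested. Gm10709 (chromosome 9, 7751725 to 7752204), which is among the 26, was lower where Gm8210 was higher, with 154 counts over the WT libraries and 0 with H151, at least 24.5-fold lower at a floor of 3 counts per library.

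Genes of the Y chromosome and immunoglobulin genes also separated the groups. Of 6 tested Y chromosome genes, 5 were lower than WT, and Eif2s3y stood at 119 and 114 CPM in WT, 37.5 and 38.6 in Trex1-KO and 34 and 35.3 with H151 (-1.75 ± 0.07, edgeR adjusted p = 8.90e-09). Kdm5d and Ddx3y were lower by similar amounts (-1.63 and -1.58 on the log2 scale). Xist, which is transcribed from the inactive X chromosome and was chosen after its values were seen, had 41 and 46 counts in WT, 54 and 54 in Trex1-KO and 52 and 53 with H151. The labels do not give the sex of the mice, and its part in the results was not tested. Of 13 immunoglobulin constant genes, 8 had counts and 5 were tested, of which 4 were higher and 1 lower. Igkc, Ighg2b and Ighg2c were under the minimum count of 10 in WT, so they entered the test through the knockout libraries, where they were high. The tally is therefore not independent of the filter. Ighm, the heavy chain of IgM, fell from 40.3 and 37.5 CPM in WT to 9.61 and 9.4 CPM with H151 (-2.03 ± 0.12, edgeR adjusted p = 1.12e-07). Igkc, the kappa light chain, rose from 0.147 and 0.339 CPM to 8.15 and 6.72 CPM (4.86 ± 0.34, edgeR adjusted p = 8.84e-07), and Igha, the heavy chain of IgA, from 0.368 and 1.42 CPM to 7.98 and 9.07 CPM (3.21 ± 0.40, edgeR adjusted p = 1.08e-04). Ighg2b had 0 counts in both WT libraries and 78 with H151, at least 14.1-fold higher at the floor of 3 counts per library, and Ighg2c 0 and 49 counts, at least 8.58-fold higher. Of 3 tested B cell markers, 1 was lower (0 without WT replicate 2 or H151 replicate 2), at a summed level of 22.4 and 25.5 CPM in WT and 22.6 and 22.6 CPM with H151.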

How the data were processed

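RNA-Seq libraries of BMDMs were taken in 4 groups of 2 from the sample titles. Per the labels and methods, the authors prepared TruSeq libraries from polyadenylated RNA, trimmed the reads with Trimmomatic, aligned them with hisat2 and counted uniquely placed read pairs. The methods name featureCounts and the submitters' processing notes HTSeq as the counter, with build mm10. The deposited values are raw counts of 54532 Ensembl genes, with no normalization. Symbols and positions (GRCm38) came from GENCODE mouse release 21, which held 54495 of them. Strand was not used, and reads in exons of more than 1 gene were not counted. Total counts ran from 11845470 to 17284863, and 3 counts, the floor used for bounds, were worth 0.175 to 0.255 CPM. These floors, and all intervals, reflect counting error alone.

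The tests were run with edgeR 4.0.16 under R 4.3.3, on the 14591 genes that passed filterByExpr (minimum count 10, minimum total 15). All 8 libraries entered 1 quasi-likelihood fit with a mean per group and TMM scaling, as the SN-011 libraries add to the estimate of spread, and the two-sided F-test was adjusted by the Benjamini-Hochberg method at a false discovery rate of 0.05. SE is approximate and was taken from the log2 fold change and its F statistic. The script was tested on simulated data. DESeq2 1.42.0, other scalings and filters, a replicate block and each library left out in turn were alternatives. Counting intervals of ratios are exact at 95%. Promoters came from the RefSeq table of GRCm38.p6.

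The gene lists and the rule for named genes were chosen with earlier results of these data known. The rule takes Trex1, Tmem173, Cgas, Ifnb1, Irf2, Zbp1, Mlkl, Cxcl10, Isg15 and Ifit3, up to 15 largest called rises and 15 falls with a mean log2 CPM of at least 2 and libraries that do not overlap, list members (up to 4 called members per list and direction with full values), and up to 6 called genes within 5 Mb of Trex1. Other genes were chosen after their values were seen, as stated. M7core and its subsets are the study's. Some genes are not reported here.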

Additional observations from a re-analysis of the deposited data

How the results depend on the processing

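The number of genes called against WT under H151, 1726, was 1487 (819 higher, 668 lower) in a fit of only the 4 libraries compared. It stayed within 1.5 times under most alternatives. It was 2207 (1072 higher, 1135 lower) when every gene with at least 1 count was tested, 1939 (1084 and 855) with a replicate block, 1323 (775 and 548) by DESeq2, 1520 in a fit without the SN-011 libraries, which was chosen after seeing the data, 974 (574 and 400) at a false discovery rate of 0.01 and 511 (220 and 291) with at least 2-fold change besides. Leaving out 1 library gave 971 to 1772 genes, 566 to 914 higher and 396 to 858 lower. For Trex1-KO against WT the same gave 1556 to 1933 genes, 835 to 1099 higher and 654 to 834 lower, and scaling by total counts gave 946 higher and 1598 lower. For Trex1-KO+H151 against Trex1-KO, 231 to 357 genes were called with 1 library left out, 28 to 72 higher and 188 to 285 lower, 525 (131 higher) when every gene was tested and 412 (93 higher) with the replicate block. The replicate numbers were not taken to pair the libraries, since the labels do not say what they mark. Deviations of same-numbered libraries correlated at 0.026 between WT and Trex1-KO+H151 and 0.061 between WT and Trex1-KO. Between Trex1-KO and Trex1-KO+H151 the correlation was 0.194, the highest of any pair of groups, and whether these groups were paired was not tested. Of 121 genes named as called against WT under H151, 117 kept their call under every alternative that tested them, at a false discovery rate of 0.05 without a fold limit. Irf2, A4galt, Osgin1 and Ptgs1 lost it under at least 1. Apol7c, Ighg2c, Marco and A4galt were tested under 11 of the 12 alternatives. Of 16 genes called against Trex1-KO that were checked in the same way, Dtx4, Cgas, Col2a1 and H2-Q7 lost that call under at least 1. Of 15 genes named as not called against WT, 7 were called under at least 1. Cxcl10 had a log2 fold change of -0.21 with all libraries, -0.96 without WT replicate 2 and 1.24 without WT replicate 1. The cause of these changes was not tested. With 1 library left out of a group, the lone library is assumed to vary like the others. Genes under 3 counts per library, such as Ifnb1, could not be compared at this depth.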

Other observations

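Further gene lists are read against the 11.8% of all genes that were called. Of 16 genes of prostaglandin and leukotriene metabolism, 2 were higher and 1 lower, with 1 higher without WT replicate 1 and 3 lower without H151 replicate 2. Hpgd, which inactivates prostaglandins, stood at 186 and 178 CPM in WT, 74.2 and 83.3 in Trex1-KO and 75.4 and 76.4 with H151 (-1.26 ± 0.07, edgeR adjusted p = 1.12e-07), and Pla2g7, a phospholipase, at 46.1 and 46 CPM in WT, 70.5 and 68.7 in Trex1-KO and 82.6 and 73.3 with H151 (0.76 ± 0.08, edgeR adjusted p = 2.62e-05). Every knockout library of Hpgd lay below both WT libraries. Of 20 genes of the unfolded protein response, 5 were higher and 1 lower (3 higher without WT replicate 1 or without WT replicate 2, and 0 lower without any 1 of the 4 libraries). Atf3, a stress-induced factor, stood at 197 and 198 CPM in WT, 257 and 272 in Trex1-KO and 299 and 308 with H151 (0.62 ± 0.06, edgeR adjusted p = 8.08e-06). Of 20 AP-1 and immediate early factors, 3 were higher (and 3 lower without H151 replicate 1), among them Jun at 94.1 and 98 CPM in WT and 147 and 131 with H151 (0.53 ± 0.07, edgeR adjusted p = 2.64e-04).

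Of 14 genes of iron handling, 4 were higher and 1 lower, and Fth1, the ferritin heavy chain, stood at 4704 and 4767 CPM in WT and 5876 and 5672 with H151 (0.29 ± 0.05, edgeR adjusted p = 8.16e-04). Of 16 genes of fatty acid synthesis, 3 were lower, and Scd2, a desaturase, stood at 113 and 89.9 CPM in WT and 70.6 and 66.6 with H151 (-0.56 ± 0.11, edgeR adjusted p = 0.00304). Of 48 genes of the cell cycle and replication, 6 were higher and 2 lower (2 higher without WT replicate 2 and 3 without H151 replicate 2). Ccnd2, a cyclin, was lower, at 39.5 and 35.6 CPM in WT, 25.8 and 24.5 in Trex1-KO and 21.6 and 23.3 with H151 (-0.74 ± 0.10, edgeR adjusted p = 2.46e-04), and Cdkn2a, a cell cycle inhibitor, was lower too, at 4.86 and 5.42 CPM in WT and 1.63 and 1.41 with H151 (-1.76 ± 0.28, edgeR adjusted p = 8.64e-04). Of 4 genes of the aryl hydrocarbon receptor axis, 1 was higher and 2 were lower (1 lower without WT replicate 1). Of 4 osteoclast markers, 2 were higher, and 1 when any of the 4 libraries was left out, with a summed level of 40.5 and 43.7 CPM in WT and 50.5 and 51 CPM with H151. Of the T and NK cell markers, 1 was tested and was lower, and Cd3e and Cd8a had 0 counts in the 6 libraries.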
